A study of Homo sapiens with 4 samples.

Results

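The 10 genes described here belong to the Notch pathway and were followed across 4 single-cell RNA-seq libraries of prostate cancer cells: the ligands JAG1, JAG2 and DLL1, the receptors NOTCH1, NOTCH2 and NOTCH3, and the HES and HEY factors HES1, HES4, HES6 and HEY1. They were chosen by symbol, and all 10 of 10 were found among the 33538 genes of the count matrices. The cells were LNCaP, an androgen-dependent human prostate adenocarcinoma line, and derivatives of it. The LNCaP library came from cells kept for 48 h in 0.1% DMSO, and the LNCaP-ENZ48 library from cells given 10 µM enzalutamide, an androgen receptor antagonist, for 48 h. The RES-A and RES-B libraries came from enzalutamide-resistant lines derived from LNCaP over months of drug exposure, RES-A in rising doses of enzalutamide and RES-B in the related antagonist RD-162, and both were kept in 10 µM enzalutamide. The latter 3 libraries therefore all came from cells in enzalutamide, and the line, the length of exposure and the passage history cannot be told apart in RES-A and RES-B. Each group was 1 library of living sorted cells, so there is no replicate check and no test between libraries. Levels are given as unique molecular identifiers (UMIs) per 1e6 UMIs of the library (CPM), summed over cells, and every interval is a 95% interval that covers counting error only.

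Notch signalling passes between neighbouring cells. A ligand of the Jagged or Delta type on one cell binds a Notch receptor on the next, the receptor is cut, and its intracellular domain enters the nucleus, joins the DNA-binding protein RBPJ and switches on target genes, among them HES and HEY repressors. These repressors are basic helix-loop-helix factors that hold back differentiation genes, and HES6 is the odd member, known to antagonise HES1. In the prostate, JAG1 and NOTCH1 are known from basal and progenitor cells, and the pathway is much studied in neuroendocrine prostate cancer.

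After filtering, 14727 of 17233 barcodes remained, between 1782 cells in LNCaP and 4569 in RES-A, with 50208831 to 60838227 UMIs per library. The median cell held 27079.5 UMIs in LNCaP but only 12138 to 13676 in the other libraries, so shares of cells with a UMI were taken after thinning every cell to 5000 UMIs, which left out no cell. Library pairs shared 2 to 12 barcodes, at most 0.254% of the smaller library. All 7 luminal markers had UMIs in every library, although KLK3 stood at only 0.0349 CPM in RES-A against 718 in LNCaP, and the summed level of the list ranged from 1312 to 2139 CPM. Of the basal markers, KRT5 and TP63 were at 0 in all 4 libraries and KRT14 did not exceed 0.299 CPM. Of the neuroendocrine markers, CHGA was at 0 and SYP was seen, at 3.37 to 4.34 CPM. The fibroblast list summed to 1.57 to 3.59 CPM with all 3 genes seen, mostly COL1A1, the endothelial list to 0.115 to 1.04 CPM, and of the immune list only CD68 had UMIs, at 0.285 to 1.01 CPM while PTPRC and CD3E were at 0. The libraries hold 1 cell line and its derivatives, so no cell type that lacks a gene was there to measure free RNA, whose part in the shares below was not tested.

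**Figure D1:**
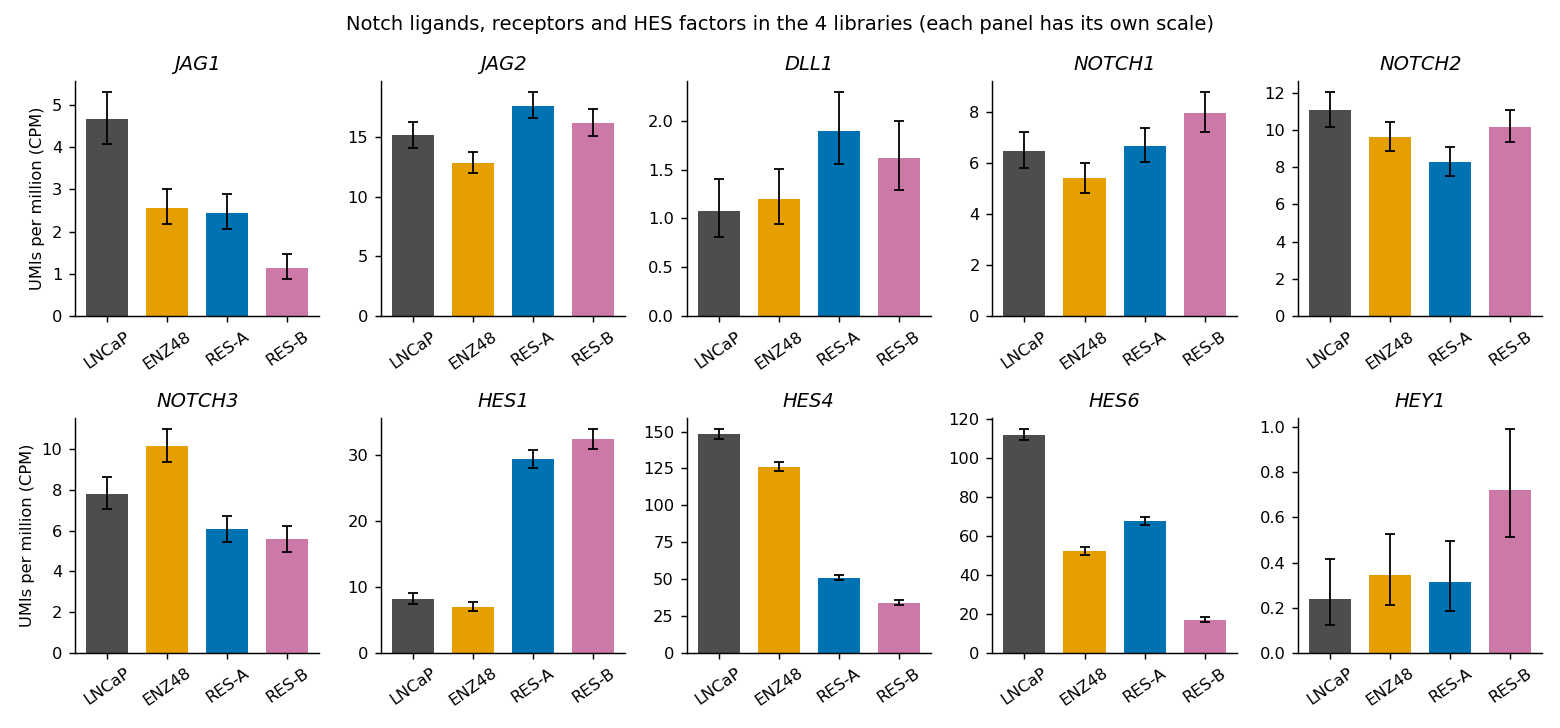
Level of each gene in each library in CPM (bars, each panel with its own scale from 0), with exact 95% Poisson intervals as black lines. HES1 rose from 8.19 CPM in LNCaP to 29.4 in RES-A and 32.4 in RES-B, whereas HES4 was lowest in these 2 lines and HES6 was lowest in RES-B.

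The 3 HES factors and the ligand JAG1 differed at least 2-fold between libraries. HES1 was 3.59-fold higher in RES-A and 3.96-fold higher in RES-B than in LNCaP, while HES4 was 2.91-fold and 4.37-fold lower. HES6 was 2.14-fold lower after 48 h of enzalutamide and 6.55-fold lower in RES-B. JAG1 was 4.08-fold lower in RES-B, and no receptor differed 2-fold between any pair of libraries.

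Of the 10 genes, 9 averaged 1 CPM or more over the libraries, while HEY1, with 12 to 38 UMIs per library, did not pass and is described apart. Among these 9, calling a difference at 2-fold, 0 were higher and 1 lower in LNCaP-ENZ48 than in LNCaP, where 0.768% and 1.25% of all 12627 genes past the same filter were higher and lower. In RES-A, 1 was higher and 1 lower than in LNCaP, against 7.89% and 6.86% of all genes. In RES-B, 1 was higher and 3 were lower than in LNCaP, against 7.9% and 5.33% of all genes. Between the resistant lines, 0 were higher and 2 lower in RES-B than in RES-A, against 5.39% and 4.02% of all genes. The first 3 comparisons share the LNCaP library, so a deviation of that library enters all of them. With edgeR's TMM scaling the split over all genes in LNCaP-ENZ48 changed from 97 higher and 158 lower to 126 and 119.

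**Figure D2:**
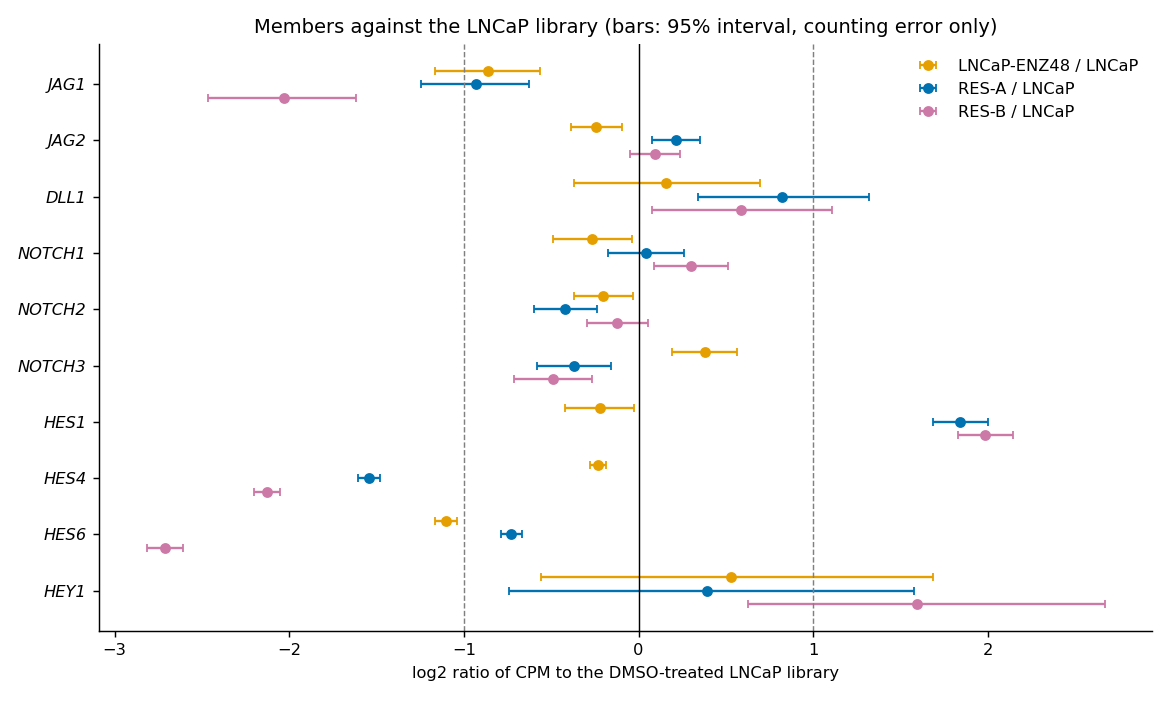
Log2 ratio of CPM to the LNCaP library for each gene in LNCaP-ENZ48 (orange), RES-A (blue) and RES-B (pink), with 95% intervals for counting error and dashed lines at 2-fold. HES1 lies beyond the right dashed line in both resistant lines, HES4 beyond the left one in both, and HES6 beyond it in LNCaP-ENZ48 and RES-B but not in RES-A.

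Among the ligands, JAG1 (chromosome 20, 10637684 to 10673999 on the minus strand, GRCh38, GENCODE 44) showed a stepwise order. It stood at 4.66 CPM in LNCaP and 2.56 in LNCaP-ENZ48, set against 2.44 for RES-A and 1.14 for RES-B, from 234, 156, 140 and 60 UMIs. LNCaP was thus the highest, RES-B the lowest, and the 2 libraries in between did not differ beyond counting error. Against LNCaP, the log2 ratio was -0.86 (-1.16 to -0.56) in LNCaP-ENZ48, -0.93 (-1.25 to -0.62) in RES-A and -2.03 (-2.46 to -1.62) in RES-B. JAG1 UMIs were found in 2.08%, 1.07%, 1.20% and 0.739% of thinned cells, in the same order of libraries. Between the resistant lines it was 2.14-fold lower in RES-B, with a log2 ratio of -1.10 (-1.56 to -0.65), but under 2-fold in G1 cells alone, at -0.90 (-1.50 to -0.33).

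JAG2 (chromosome 14, 105140982 to 105168824, minus strand), a ligand of the same Jagged type, did not follow JAG1. Its level was 15.2 CPM in LNCaP and 12.8 in LNCaP-ENZ48, set against 17.6 for RES-A and 16.2 for RES-B, from 761, 780, 1010 and 850 UMIs. LNCaP-ENZ48 was below the other 3 beyond counting error, and the neighbours LNCaP and RES-B, and RES-B and RES-A, did not differ. The ratio to LNCaP was -0.24 (-0.39 to -0.10), 0.22 (0.08 to 0.35) and 0.09 (-0.05 to 0.24) on the log2 scale in LNCaP-ENZ48, RES-A and RES-B.

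DLL1 (chromosome 6, 170282206 to 170306565, minus strand), a Delta-type ligand, was the faintest gene past the filter, with 54, 73, 109 and 85 UMIs in LNCaP and LNCaP-ENZ48 and then in RES-A and RES-B. Its level was 1.08, 1.20, 1.90 and 1.62 CPM. By level the libraries ran LNCaP, LNCaP-ENZ48, RES-B and RES-A, and no 2 neighbours in that order differed beyond counting error. RES-A exceeded LNCaP by 0.82 on the log2 scale (0.34 to 1.32) and LNCaP-ENZ48 by 0.66 (0.22 to 1.11). RES-B exceeded LNCaP by 0.59 (0.08 to 1.11), and the 0.16 of LNCaP-ENZ48 (-0.37 to 0.69) was within counting error.

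Of the 5 ligand genes on the wider pathway list, DLL3, a ligand known to act as an inhibitor, also passed the filter and was named after its values were seen. It stood at 43.1 CPM in LNCaP and 38.6 in LNCaP-ENZ48, and RES-A, at 65.8, lay above RES-B, at 41.5. Against LNCaP its log2 ratio was 0.61 (0.53 to 0.69) in RES-A and within counting error in RES-B, at -0.05 (-0.14 to 0.03).

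Across the receptors the differences stayed within 2-fold. NOTCH1 (chromosome 9, 136494433 to 136546048, minus strand) had 6.49 CPM in LNCaP and 5.41 in LNCaP-ENZ48, set against 6.70 for RES-A and 7.99 for RES-B, from 326, 329, 384 and 420 UMIs. LNCaP-ENZ48 was the lowest and RES-B the highest, with a log2 ratio of 0.56 (0.35 to 0.78) between them. Against LNCaP the log2 ratio was -0.26 (-0.49 to -0.04) in LNCaP-ENZ48, 0.04 (-0.17 to 0.26) in RES-A and 0.30 (0.09 to 0.51) in RES-B.

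NOTCH2 (chromosome 1, 119911553 to 120100779, minus strand) had 11.1 CPM in LNCaP and 9.63 in LNCaP-ENZ48, set against 8.28 for RES-A and 10.2 for RES-B, from 556, 586, 475 and 535 UMIs. RES-A was the lowest, 0.42 below LNCaP on the log2 scale (log2 ratio -0.42, -0.60 to -0.24), and RES-B was within counting error of LNCaP. The NOTCH2NL genes are partial copies of NOTCH2 with nearly the same sequence, and reads can be lost or moved between them, so the level of NOTCH2 is uncertain. The NOTCH2NL entry of the annotation, named for this likeness and not by the rule for named genes, had 3.51, 2.51, 2.09 and 2.59 CPM.

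NOTCH3 (chromosome 19, 15159038 to 15200995, minus strand) was the receptor with the widest range. Its level was 7.83 CPM in LNCaP and 10.2 in LNCaP-ENZ48, set against 6.07 for RES-A and 5.57 for RES-B, from 393, 619, 348 and 293 UMIs. It was higher than in LNCaP after 48 h of drug, at 0.38 on the log2 scale (0.19 to 0.56), and lower in both resistant lines, at -0.37 (-0.58 to -0.16) and -0.49 (-0.71 to -0.27). Between LNCaP-ENZ48 and RES-B, both of which were in enzalutamide, the difference reached 1.83-fold, while RES-A and RES-B did not differ beyond counting error.

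At the level of cells, the receptors and ligands were thinly spread. After thinning, 11.9% of LNCaP and 11.3% of LNCaP-ENZ48 cells, with 10.1% for RES-A and 11.8% for RES-B, held a UMI of NOTCH1, NOTCH2 or NOTCH3. UMIs of JAG1, JAG2 or DLL1 were found in 9.48%, 7.86%, 9.96% and 9.41% of cells. Cells with both a receptor and a ligand UMI made up 0.898% (0.514 to 1.45), 0.997% (0.722 to 1.34), 1.01% (0.738 to 1.34) and 1.21% (0.894 to 1.59), intervals that overlap in all 4 libraries. At this depth a cell without a UMI may still express the gene.

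HES1 (chromosome 3, 194136148 to 194138732, plus strand) encodes a repressor that is a direct Notch target in many tissues. Its level was 8.19 CPM (7.41 to 9.02) in LNCaP and 7.02 (6.37 to 7.72) in LNCaP-ENZ48, set against 29.4 (28.0 to 30.8) for RES-A and 32.4 (30.9 to 34.0) for RES-B. Both resistant lines stood far above the 2 other libraries, which lay close to each other. The log2 ratio to LNCaP was 1.84 (1.69 to 2.00) in RES-A and 1.98 (1.83 to 2.14) in RES-B, and -0.22 (-0.42 to -0.02) in LNCaP-ENZ48. Against LNCaP-ENZ48, which shares the drug with the resistant lines, HES1 was 4.18-fold higher in RES-A and 4.62-fold higher in RES-B.

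More cells held HES1 UMIs in the resistant lines. The share of thinned cells with at least 1 UMI was 3.37% (2.58 to 4.31) in LNCaP and 3.31% (2.80 to 3.89) in LNCaP-ENZ48, set against 13.2% (12.3 to 14.2) for RES-A and 14.0% (13 to 15.1) for RES-B. Without thinning it was 16.7%, 8.11%, 27.3% and 30.9%, where the deeper LNCaP cells had more chance of a UMI. The variance of the thinned counts was 1.03 to 1.16 times their mean in the 4 libraries, and the highest count in a single cell was 11 UMIs, in RES-B.

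HES4 (chromosome 1, 998962 to 1000172, minus strand) encodes a HES repressor that has no counterpart in the mouse. It was 148 CPM (145 to 152) in LNCaP and 126 (123 to 129) in LNCaP-ENZ48, set against 51.0 (49.1 to 52.8) for RES-A and 34.0 (32.4 to 35.6) for RES-B. All 4 levels differed beyond counting error, with a narrow gap between LNCaP and LNCaP-ENZ48 and a wide gap to the resistant lines. The log2 ratio to LNCaP was -0.23 (-0.28 to -0.19) after 48 h, -1.54 (-1.60 to -1.48) in RES-A and -2.13 (-2.20 to -2.05) in RES-B. HES4 UMIs were found in 50% (47.7 to 52.3), 45.2% (43.7 to 46.7), 19.8% (18.6 to 20.9) and 14.3% (13.3 to 15.4) of thinned cells.

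HES1 and HES4 thus moved in opposite directions in both resistant lines. Their promoter sequences and that of HES6 are shown because RBPJ is the DNA-binding protein of the pathway. The bases before the RefSeq start of HES1 (chr3:194135898-194136147, plus strand), HES4 (chr1:1000143-1000347, minus strand) and HES6 (chr2:238240039-238240288, minus strand) are shown 5′ to 3′ on the strand of the gene in build GRCh38.p14 from RefSeq, with the core TGGGAA of the RBPJ motif in capitals where it occurs on either strand. The motif was searched in 250 bases before each start, all shown for HES1 and HES6 and 205 of them for HES4, where the rest lies in the transcribed 5′ end of another transcript. The last 30 bases shown for HES4, which take in most of its core, and the last 3 for HES6 also lie in an annotated untranslated end. The HES4 core therefore straddles another annotated start.
HES1: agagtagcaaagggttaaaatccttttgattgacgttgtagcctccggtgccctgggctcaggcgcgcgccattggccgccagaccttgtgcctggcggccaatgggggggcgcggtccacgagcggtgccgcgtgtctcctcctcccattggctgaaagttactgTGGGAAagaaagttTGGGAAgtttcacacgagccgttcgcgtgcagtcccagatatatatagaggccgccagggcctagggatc
HES4: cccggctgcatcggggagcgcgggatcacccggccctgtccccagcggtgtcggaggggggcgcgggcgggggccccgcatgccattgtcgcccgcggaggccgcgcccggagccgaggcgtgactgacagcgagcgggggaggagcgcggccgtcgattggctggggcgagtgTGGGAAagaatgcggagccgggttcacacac
HES6: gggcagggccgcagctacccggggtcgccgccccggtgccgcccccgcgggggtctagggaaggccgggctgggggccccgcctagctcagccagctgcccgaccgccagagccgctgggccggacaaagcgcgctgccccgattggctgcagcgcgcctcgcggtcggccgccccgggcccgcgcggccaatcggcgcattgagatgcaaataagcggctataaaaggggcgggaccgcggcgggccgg
HES1 held 2 copies of the core, whose first bases lie 84 and 70 bases before the start, HES4 held 1, 76 bases before it, and HES6 none. The longer form GTGGGAA, which contains the core, occurred once in HES1 and once in HES4. Of 35116 promoters of the same length, 20.8% held the core and 5.43% the longer form on either strand. Of the 10 genes, 8 were matched to a RefSeq promoter, of which 2 held the core, and the other 6, HES6 and the 3 receptors and 2 Jagged ligands, held none in this window. The RefSeq starts of HES4 and HES6 lie inside the GENCODE spans given here, so other starts exist. A match of letters is a description of the window and not a binding site.

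HES6 (chromosome 2, 238238267 to 238240662, minus strand), the HES1 antagonist, fell after short treatment and most of all in RES-B. It stood at 112 CPM (109 to 115) in LNCaP and 52.1 (50.3 to 54.0) in LNCaP-ENZ48, set against 67.4 (65.3 to 69.5) for RES-A and 17.1 (16 to 18.2) for RES-B. RES-A lay above LNCaP-ENZ48, so the 2 resistant lines were not neighbours in the order, in contrast to HES1 and HES4. The log2 ratio to LNCaP was -1.10 (-1.16 to -1.04), -0.73 (-0.79 to -0.67) and -2.71 (-2.81 to -2.61) in LNCaP-ENZ48, RES-A and RES-B. The first of these fell just short of 2-fold with DESeq2 size factors. HES6 was 3.95-fold lower in RES-B than in RES-A, the largest difference among the 10 genes between the resistant lines.

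The share of thinned cells with a HES6 UMI was 34.2% (32.0 to 36.5), 20.2% (19.0 to 21.5), 27.4% (26.2 to 28.8) and 7.90% (7.09 to 8.78). HES6 was also the gene with the most uneven counts between cells. The variance of its thinned counts was 1.68 times the mean in LNCaP and 1.84 times in LNCaP-ENZ48, but 1.25 in RES-A and 1.09 in RES-B, while the other 9 genes had values of at most 1.16 in every library. Single LNCaP cells reached 117 and 55 UMIs of HES6. The tenth of cells with the most HES6 UMIs held 42.1% of them in LNCaP and 39.7% in RES-A. This share was 50.2% for LNCaP-ENZ48 and highest for RES-B, at 63.0%, although RES-B had the lowest variance ratio. The share is therefore no evidence of uneven counts. Both measures depend on the mean count, so neither ranks genes of different levels by evenness. For the same reason neither shows how evenly HES6 was spread in RES-B. Without the cell with the most UMIs in each library, the level was 109 CPM in LNCaP and 51.6 in LNCaP-ENZ48, set against 67.1 for RES-A and 17 for RES-B.

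HEY1 (chromosome 8, 79762371 to 79767857, minus strand), a repressor related to the HES factors and also a Notch target, was at the edge of detection. It had 12, 21, 18 and 38 UMIs in LNCaP and LNCaP-ENZ48 and then in RES-A and RES-B, or 0.239, 0.345, 0.314 and 0.723 CPM. RES-B was the highest, with a log2 ratio to LNCaP of 1.60 (0.63 to 2.67), and the other 3 libraries did not differ beyond counting error. HEY1 UMIs were seen in 0.320% of thinned RES-B cells and in 0.109% to 0.185% of the others, at no more than 1 UMI per cell.

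The differences between libraries were next taken within phases of the cell cycle, called from the S and G2/M gene lists of Seurat, which hold 43 and 54 genes and none of the 10. Cells called G1 made up 64.7% of LNCaP and 73.8% of LNCaP-ENZ48, with 58.6% for RES-A and 65.2% for RES-B, and G2/M cells 17.7%, 11%, 17.6% and 16.5%. The calls of RES-A were unstable: made in that library alone, they gave 429 S cells instead of 1087 and 3228 G1 cells instead of 2677. HES1 was higher in both resistant lines than in LNCaP in every phase, by 1.74, 1.96 and 2.13 on the log2 scale in G1, S and G2/M cells of RES-A and by 1.80, 2.12 and 2.49 in RES-B. HES4 was lower in every phase, with log2 ratios of -2.00, -1.24 and -1.16 in RES-A and -2.36, -1.79 and -1.96 in RES-B.

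**Figure D3:**
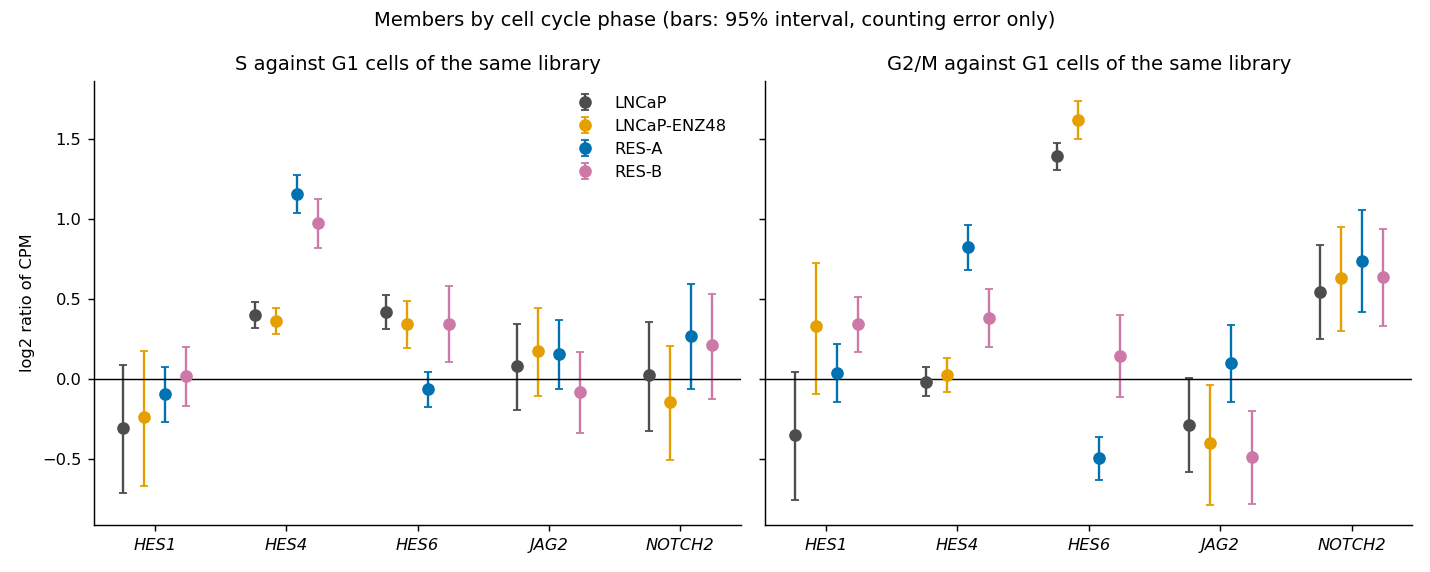
Log2 ratio of CPM in S cells (left) and G2/M cells (right) to G1 cells of the same library, for 5 genes and 4 libraries, with 95% intervals for counting error. HES6 lies at 1.39 and 1.62 in G2/M cells of LNCaP and LNCaP-ENZ48 but below 0 in RES-A, HES4 is above 0 in S cells of every library, and NOTCH2 is above 0 in G2/M cells of every library.

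HES6 was higher in G2/M than in G1 cells of LNCaP and LNCaP-ENZ48, but lower in RES-A and within counting error in RES-B. In LNCaP it stood at 81.5 CPM in G1 cells and 214 in G2/M cells, a log2 ratio of 1.39 (1.31 to 1.48), and in LNCaP-ENZ48 at 40.7 and 125 CPM, a log2 ratio of 1.62 (1.5 to 1.74). In RES-A it was lower in G2/M cells, at 51.1 CPM against 72.2 in G1 cells (log2 ratio -0.50, -0.63 to -0.36), and in RES-B the 17.6 and 15.9 CPM did not differ beyond counting error (0.14, -0.11 to 0.40). In S cells HES6 was above its G1 level in LNCaP, LNCaP-ENZ48 and RES-B, with log2 ratios of 0.42 (0.31 to 0.53), 0.34 (0.19 to 0.48) and 0.34 (0.10 to 0.58). In S cells of RES-A the log2 ratio was -0.07 (-0.18 to 0.04), and 0.15 (0.0058 to 0.29) with phases called in each library alone. Since each value is 1 library, the difference between libraries was not tested beyond counting error.

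Seen by phase, the lower HES6 of RES-A lay mainly in cycling cells. Against LNCaP, RES-A was lower by 1.13-fold in G1 cells, 1.58-fold in S cells and 4.19-fold in G2/M cells, with log2 ratios of -0.18 (-0.26 to -0.09), -0.66 (-0.79 to -0.53) and -2.07 (-2.20 to -1.93). RES-B was lower in all phases, by 5.12-fold, 5.41-fold and 12.2-fold. After 48 h of enzalutamide the log2 ratio was -1.0 (-1.09 to -0.91) in G1, -1.08 (-1.24 to -0.93) in S and -0.77 (-0.89 to -0.66) in G2/M cells, so the lower level was present within each phase as well as in the library with its smaller share of G2/M cells.

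**Figure D4:**
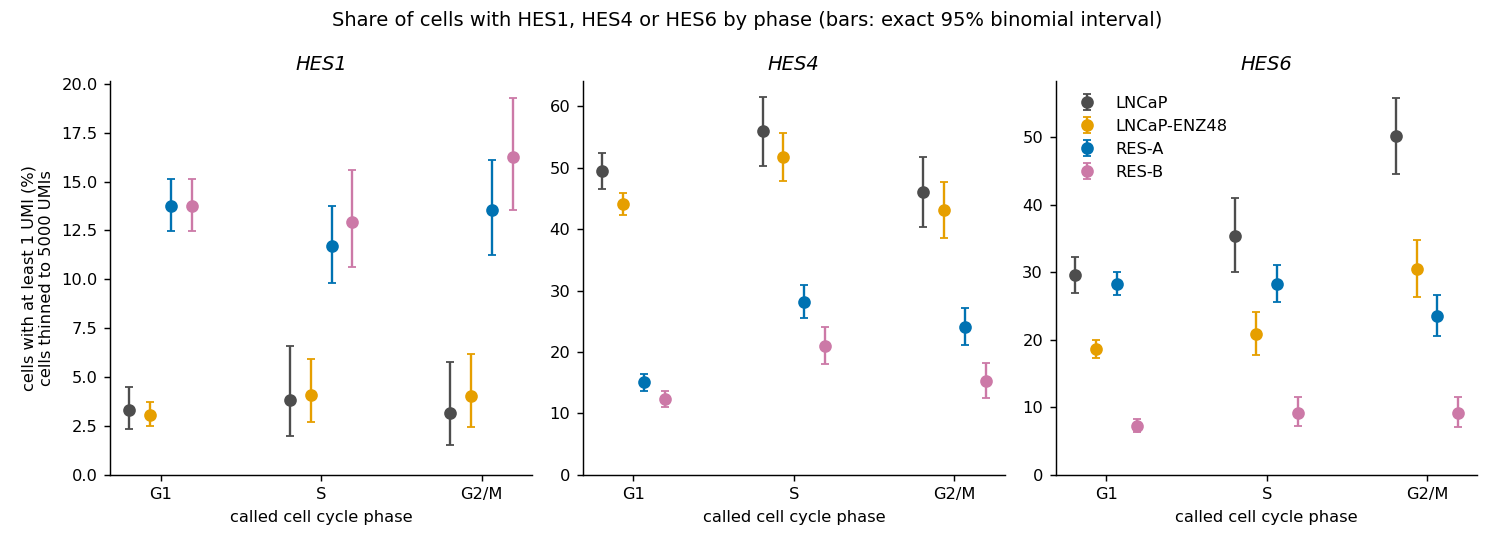
Share of cells with at least 1 UMI of HES1, HES4 or HES6 among G1, S and G2/M cells of each library, all cells thinned to 5000 UMIs, with exact 95% binomial intervals. HES6 reaches 50.2% of G2/M cells in LNCaP but 23.5% in RES-A, although the shares of G1 cells, 29.6% and 28.3%, have overlapping intervals.

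The shares of cells gave the same picture without the few cells of very high counts weighing more. HES6 UMIs were found in 29.6% (27.0 to 32.3) of G1 and 50.2% (44.5 to 55.8) of G2/M cells in LNCaP, and in 28.3% (26.6 to 30.1) of G1 and 23.5% (20.6 to 26.6) of G2/M cells in RES-A. Cells with at least 4 HES6 UMIs after thinning numbered 28 in LNCaP and 27 in LNCaP-ENZ48, of which 19 and 21 were G2/M cells. RES-A had 14 such cells, of which 1 was in G2/M, and RES-B had 1, which was not. Without the cell with the most HES6 UMIs, the log2 ratio of G2/M to G1 cells was 1.31 in LNCaP and 1.57 in LNCaP-ENZ48.

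HES4 was higher in S than in G1 cells of all 4 libraries. The log2 ratio was 0.40 (0.32 to 0.48) in LNCaP and 0.36 (0.28 to 0.44) in LNCaP-ENZ48, set against 1.16 (1.04 to 1.28) for RES-A and 0.97 (0.82 to 1.13) for RES-B, with a mean of 0.72 ± 0.40 (SD, n = 4 libraries). An exact two-sided sign-flip permutation test over the 4 libraries gave p = 0.125, the smallest value that 4 libraries allow, and 0.4 after Benjamini-Hochberg adjustment over 8 such tests (HES1, HES4, HES6 and JAG2, each in S and G2/M). In G2/M cells HES4 was at the G1 level in LNCaP and LNCaP-ENZ48, with log2 ratios of -0.02 (-0.11 to 0.07) and 0.02 (-0.08 to 0.13), and above it in RES-A and RES-B, at 0.82 (0.68 to 0.96) and 0.38 (0.20 to 0.56). The lower HES4 of the resistant lines was thus widest in G1 cells, where RES-A had 35.1 CPM and RES-B 27.3 against 140 in LNCaP.

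The ligands, the receptors and HES1 were set against their G1 level in the same way. NOTCH2 was higher in G2/M than in G1 cells in 4 of 4 libraries, with log2 ratios of 0.54 (0.25 to 0.84), 0.63 (0.30 to 0.95), 0.74 (0.42 to 1.06) and 0.64 (0.33 to 0.94) in LNCaP and LNCaP-ENZ48 and then in RES-A and RES-B. It was left out of the permutation tests because its mean was under 10 CPM. JAG2 was lower in G2/M cells of LNCaP-ENZ48 and RES-B, at -0.40 (-0.79 to -0.04) and -0.49 (-0.79 to -0.20), and within counting error in the other 2. The JAG2 value of LNCaP was borderline, at -0.29 (-0.59 to 0.0019). With phases called in each library alone it was lower beyond counting error, at -0.34 (-0.65 to -0.05). In 1 library each, G2/M cells were higher for JAG1 (LNCaP, 0.61, 0.16 to 1.05), NOTCH3 (LNCaP-ENZ48, 0.42, 0.07 to 0.75) and NOTCH1 (RES-B, 0.39, 0.03 to 0.74), and S cells were lower for DLL1 (RES-B, -1.02, -2.14 to -0.04, from 10 UMIs). The NOTCH3 value was within counting error with phases called in each library alone, at 0.33 (-0.02 to 0.66). HES1 differed from its G1 level beyond counting error only in G2/M cells of RES-B, at 0.34 (0.16 to 0.51). Each gene was read in 2 phases and 4 libraries, so lone intervals clear of 0 can arise from counting error alone.

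Likeness between genes was described across the cells of each library, by Pearson's r of log-normalised thinned values among the 7460 genes that averaged 10 CPM or more. All cells of a library share its depth and preparation, and no p is given. The genes most like HES4 were CLSPN, MCM4, BRCA1, ATAD2 and FAM111B, with mean r of 0.110, 0.100, 0.0967, 0.0940 and 0.0933 over the 4 libraries. Of these, 3 belong to the S list that called the phases. The genes most like HES6 were HMGB2, TOP2A, TPX2, CENPF and NUSAP1, which are all on the G2/M list.

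Their r with HES6 was 0.166 to 0.209 in LNCaP and 0.123 to 0.15 in LNCaP-ENZ48, but -0.0546 to -0.0115 in RES-A and 0.0209 to 0.0396 in RES-B. These genes were picked by the mean of these same r values, so the contrast between libraries is partly built in. Being on the G2/M list, they also restate the phase result and are no separate evidence. For HES1 (PHLDA2, PTTG1, HSPB1, IDH2 and NMU) and JAG2 (NOC2L, PDK1, IFT57, KMT5C and MCRIP2) no mean r exceeded 0.0434, which in counts this sparse is no finding. Between HES1, HES4, HES6 and JAG2 themselves, all 6 pairs had r between -0.0255 and 0.0247 in every library.

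**Figure D5:**
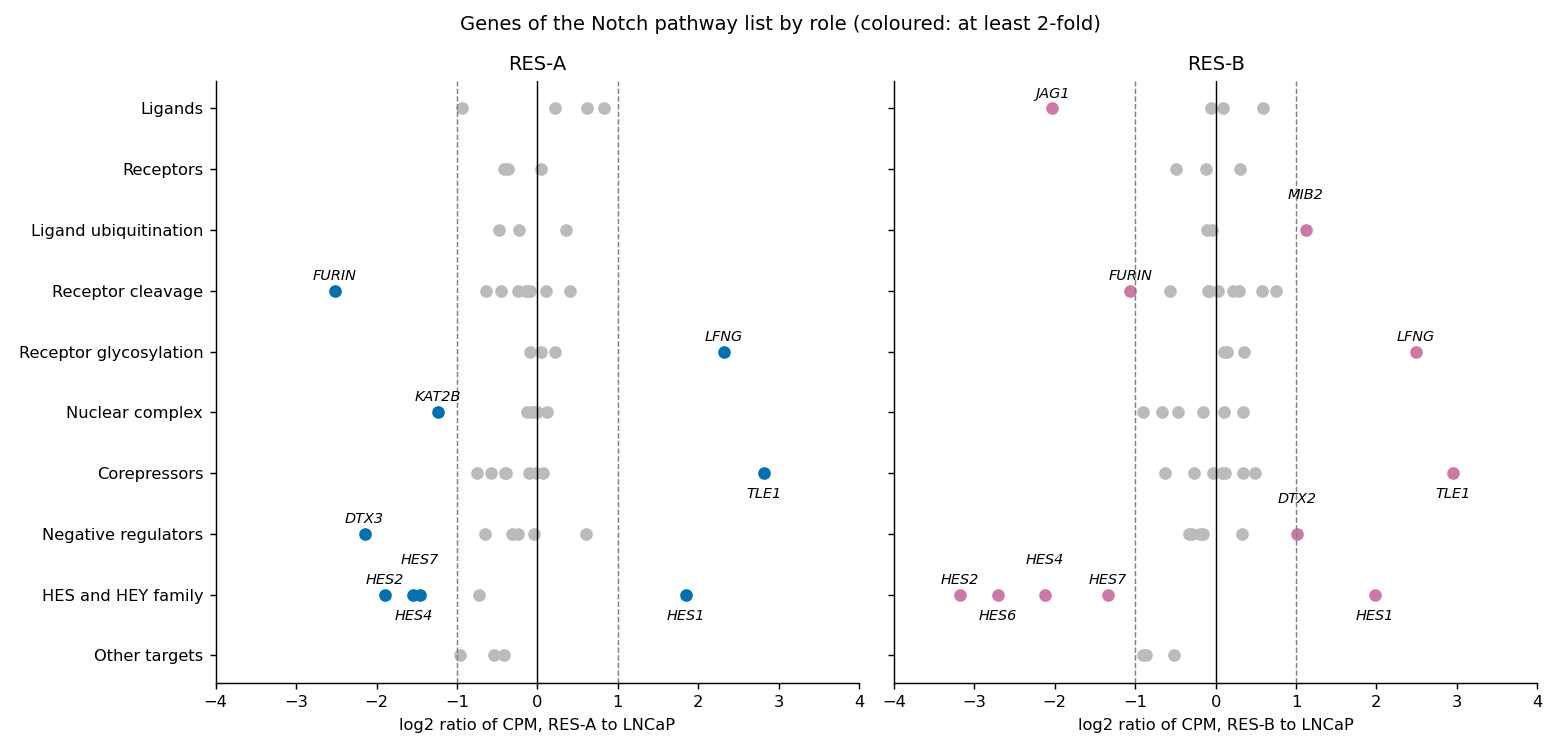
Log2 ratio of CPM to LNCaP for the 51 genes of the Notch pathway list past the filter, in rows by role, in RES-A (left) and RES-B (right), with dashed lines at 2-fold and coloured, named points beyond them. TLE1, LFNG and HES1 lie to the right of the dashed lines in both panels, and HES2, HES4 and HES7 to the left.

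A wider list of 74 Notch pathway genes, which includes the 10, had 51 genes past the filter. In LNCaP-ENZ48, 0 of the 51 were at least 2-fold higher than in LNCaP and 1 was lower, HES6, beside 0.768% and 1.25% of all genes past the filter. In RES-A, 3 of the 51 were higher and 6 lower, beside 7.89% and 6.86% of all genes. In RES-B, 5 of the 51 were higher and 6 lower, beside 7.9% and 5.33% of all genes. The median log2 ratio of the list was -0.16, -0.14 and -0.05 in LNCaP-ENZ48, RES-A and RES-B, beside -0.08, 0.02 and 0.10 over all genes past the filter. Between the resistant lines 2 were higher and 3 lower in RES-B, beside 5.39% and 4.02% of all genes, with a median of 0.12 beside 0.08.

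TLE1 and LFNG had the highest ratios of the 51 in both resistant lines. TLE1, a Groucho-type corepressor that HES proteins recruit, was 3.88 CPM in LNCaP and 5.33 in LNCaP-ENZ48, set against 27.5 for RES-A and 30.2 for RES-B. Its log2 ratio to LNCaP was 2.82 (2.61 to 3.04) in RES-A and 2.96 (2.74 to 3.18) in RES-B. LFNG, a glycosyltransferase that adds sugars to Notch receptors and alters their response to ligands, was 0.757, 0.444, 3.77 and 4.24 CPM, with log2 ratios of 2.32 (1.81 to 2.85) and 2.49 (1.99 to 3.02), and passed the filter only through the resistant lines.

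HES2 and HES7 passed the filter only through LNCaP and LNCaP-ENZ48, where they were high, so the filter favours a lower level in the resistant lines and their direction is no sign of a family pattern. HES2 stood at 2.59 CPM in LNCaP and 2.19 in LNCaP-ENZ48, set against 0.698 for RES-A and 0.285 for RES-B, with log2 ratios of -1.89 (-2.44 to -1.37) and -3.18 (-4.06 to -2.41) in the resistant lines. HES7, known from the segmentation clock, stood at 2.07, 1.84, 0.750 and 0.818 CPM, with log2 ratios of -1.47 (-2.01 to -0.94) and -1.34 (-1.89 to -0.81). Of the 11 HES and HEY genes, 5 passed the filter, of which 1 was called higher and 3 lower in RES-A, beside the 7.89% and 6.86% over all genes, and 1 higher and 4 lower in RES-B, beside 7.9% and 5.33%. These counts include HES2 and HES7.

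Among the remaining genes, FURIN, a protease that cuts the Notch precursor, had 6.81, 6.16, 1.19 and 3.27 CPM, a log2 ratio of -2.52 (-2.92 to -2.14) in RES-A and -1.06 (-1.33 to -0.79) in RES-B. DTX3, a ubiquitin ligase of the Deltex family, separated the resistant lines, at 0.453 CPM in RES-A against 2.53 in RES-B and 2.01 in LNCaP. KAT2B, an acetyltransferase of the nuclear complex, was lower in RES-A (1.55 against 3.66 CPM in LNCaP), and MIB2, a ubiquitin ligase for ligands, and DTX2 were higher in RES-B, at 18.8 against 8.66 CPM and 13 against 6.47. HES7, KAT2B, MIB2 and DTX2 lay outside the 6 largest differences of a comparison and were named after their values were seen.

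The 3 further targets of Notch on the list all had a mean above the filter and none was called. NRARP, a feedback inhibitor of the pathway, had 8.92, 6.53, 4.59 and 4.77 CPM in LNCaP and LNCaP-ENZ48 and then in RES-A and RES-B, with log2 ratios of -0.45 (-0.65 to -0.25), -0.96 (-1.19 to -0.74) and -0.90 (-1.13 to -0.68). It was singled out after its values were seen, because its level in the resistant lines lay below that in LNCaP while HES1 lay above. None of the 7 proneural factors on the list, which HES repressors hold back in the nervous system, passed the filter.

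Since regions of these lines can differ in copy number, each gene was set beside the median of up to 25 genes on either side of it. The 50 neighbours of HES1 had a median log2 ratio of 0.03 against LNCaP in RES-A as in RES-B, and those of HES6 0.02 and 0.01. The 50 neighbours of JAG1 had 0.03 and -0.01. The 35 genes around HES4, near the end of chromosome 1p, were on the whole higher than in LNCaP, by a median of 0.28 for RES-A and 0.48 for RES-B, so HES4 lay 1.83 and 2.61 below its surroundings on the log2 scale (differences of -1.83 and -2.61).

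The neighbours of the other ligands and of the receptors were taken in the same way. Around JAG2, 35 genes had a median of 0.29 in RES-A, where JAG2 had 0.22, and 0.28 in RES-B, where it had 0.09. Around DLL1, 29 genes had 0.30 and 0.18, beside 0.82 and 0.59 for DLL1. The 50 neighbours of NOTCH1 had -0.28 in RES-A and 0.07 in RES-B, beside 0.04 and 0.30 for NOTCH1. Those of NOTCH2 had -0.14 and 0.30, beside -0.42 and -0.12. For NOTCH3 the medians were 0.06 and 0.07, beside -0.37 and -0.49. Copy number itself was not measured here, and its part in these levels was not tested.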

How the data were processed

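Single-cell RNA-seq of 4 libraries (1 per group) was analysed. The deposited counts are UMI counts per gene and barcode, not normalised, which the authors made from Chromium 3′ v3 reads with Cell Ranger 3.0.2 and the prebuilt GRCh38 reference. Cells were kept by the limits per library that the study gives. For LNCaP these were 3000 to 7000 genes, 16000 to 50000 UMIs and under 15% mitochondrial UMIs. For the other libraries they were 1500 to 5000 genes and 5000 to 25000 UMIs, and under 15%, 17% or 20% in LNCaP-ENZ48, RES-A and RES-B. The limits thus ask for deeper cells in LNCaP, but that library was also deeper before filtering. It held 56598478 UMIs over 2358 barcodes, against 60014045 to 68748470 over 4812 to 5156 in the other libraries. No doublet caller was run. UMIs were summed over cells and scaled to CPM. Ratios between libraries carry exact conditional binomial intervals, CPM exact Poisson intervals and shares exact binomial (Clopper-Pearson) intervals, all at 95%. They cover counting error only. The ratio script was tested on simulated data.

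A difference was called at 2-fold among genes that averaged 1 CPM or more over the 4 libraries, and 3 UMIs stood in for a count of 0. For shares, cells were thinned to 5000 UMIs. Phases were called with scanpy 1.11.5 over all 4 libraries together, from the lists in Seurat 5.3.0. The study tested over cells, which are not replicates, so that test was not repeated. Gene positions came from GENCODE 44, matched by gene ID, and promoters from RefSeq. All 10 genes are named, as are list genes past 2-fold (at most 6 per comparison, by size), the 5 genes most like each of the 10 that averaged 10 CPM or more, and cell type markers, apart from a gene that is not reported here; any other is said to be named after its values were seen. The 10 genes and the lists were chosen with earlier results of these data known. Alternatives were the choice of cells, TMM scaling (edgeR 4.0.16), DESeq2 1.42.0 size factors, the filter, the fold, the thinning depth and the phase calls. Python 3.11.15 and R 4.3.3 were used.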

Additional observations from a re-analysis of the deposited data

Results flagged for a closer look

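HES6 in G2/M against G1 cells ran in opposite directions in libraries of this series. The log2 ratio was 1.39 in LNCaP and 1.62 in LNCaP-ENZ48 but -0.50 in RES-A, with all 3 counting intervals clear of 0. The difference of the log2 ratios was -1.89 between RES-A and LNCaP and -2.12 between RES-A and LNCaP-ENZ48. Each group is 1 library, so the difference was not tested.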

How the results depend on the processing

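The counts of called genes were recomputed under 9 other settings and, chosen after seeing the data, in S cells and in G2/M cells only. In LNCaP-ENZ48 the count of 1 became 0 with DESeq2 size factors, where HES6 fell just short of 2-fold, and 2 at 1.5-fold. In G2/M cells it was 1 through JAG1, while HES6, at -0.77, was not called. In RES-A against LNCaP the count of 2 became 5 at 1.5-fold and 5 in G2/M cells. In RES-B against RES-A the count of 2 became 1 with all barcodes, without the 5% of cells with the most UMIs, in G1 cells and among genes of at least 10 CPM, in each case through JAG1. In RES-B against LNCaP it stayed within 1.5 times. No called ratio changed sign under any alternative. HES6 in RES-A against LNCaP was -0.18 in G1 cells only and -0.73 in all cells. Of ratios not called, NOTCH1 in RES-A against LNCaP and JAG2 in RES-B against both changed sign under at least 1 alternative. In G2/M cells so did HES1 in LNCaP-ENZ48 (0.34), HEY1 in RES-A (-1.78, and -0.62 in S cells) and NOTCH3 in RES-B against RES-A (0.14), and in S cells NOTCH2 in RES-B against LNCaP (0.01). DESeq2 factors moved the median of all genes by 0.10 in LNCaP-ENZ48 and TMM by -0.11 in RES-B. Such shifts are large beside the small differences that lay beyond counting error. Under the other choices of cells and scaling, S and G2/M cells alone left aside, LNCaP-ENZ48 against LNCaP ranged from -0.27 to -0.14 for JAG2. The range was -0.34 to -0.16 for NOTCH1 and -0.34 to -0.12 for HES1. HES6 in G2/M against G1 cells was 1.42, 1.59, -0.48 and 0.13 with phases called in each library alone. No paired analysis was possible because each group is 1 library. HEY1, DLL1 and JAG1 rest on few UMIs, and depth limits their differences.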
